A study of Mus musculus with 8 samples.

Results

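The 8 mRNAs Pou5f1, Sox2, Lin28a, Utf1, Tdgf1, Dnmt3b, L1td1 and Sall4, which mark the undifferentiated state of pluripotent mouse cells, were followed through 8 nanopore direct RNA sequencing libraries of P19 cells. They were chosen by gene name. A read was kept when Nanopolish, the tool that estimates the poly(A) tail of each read, had tagged it PASS and it lay on a transcript of the mRNA class, and each read was counted once per transcript. All 8 genes reached the minimum of 30 reads, out of 5842 genes that did so and 13120 genes with any read. Their 7449 reads were 0.387% of the 1926118 reads kept, with 667 to 1272 reads per library.

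P19 is a single established line of mouse embryonal carcinoma cells, here kept undifferentiated and without retinoic acid in every group. Cells were exposed to 10 µM of MHY1485 (MHY), a compound used to activate the kinase mTOR, or to the same amount of its solvent DMSO, for 24 h or for 48 h with the medium and compound renewed each day. Each of the 4 groups held 2 libraries. Libraries are called by the number that the deposited table gives them, and both treatments carry the numbers 21 and 23 at 24 h and the numbers 24 and 25 at 48 h. All 4 libraries of a time point were barcoded and sequenced in the same runs, 3 runs for 24 h and 2 runs for 48 h, so that treatments can be compared within a run whereas time and run cannot be told apart. Depth was between 178369 and 316546 kept reads per library. The study's methods describe the 2 libraries of a group as biological replicates. The fits estimate the spread between libraries over all 4 groups and draw it towards that of all genes. Their p-values thus do not measure a gene against its own replicates alone.

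Pluripotent cells hold their identity through a small set of transcription factors, of which Oct4 (encoded by Pou5f1) and Sox2 bind DNA together at the enhancers of many stem cell genes. Around this core stand other factors such as Sall4, chromatin regulators such as Utf1 and the de novo DNA methyltransferase Dnmt3b, the RNA-binding proteins Lin28a and L1td1, and the co-receptor Tdgf1 (Cripto), through which Nodal signals. In direct RNA sequencing the native molecule is read from its poly(A) tail inward. One read thus stands for 1 molecule whatever its length, and levels are given as reads without division by length. Tails are long on newly made mRNA and are trimmed in the cytoplasm, and tails under 30 nucleotides (nt) are commonly linked to decay.

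The 3′ ends of the members were first compared with the annotation, because the tail of a read begins where its alignment ends. The windows below are the last 30 bases before the commonest read end of each gene, taken from its most-read transcript (GENCODE, assembly GRCm38, the same assembly as mm10, which the files use) and written 5′ to 3′ on the gene's strand. Capitals mark the poly(A) signal hexamer, the element that directs cleavage and polyadenylation, and all 8 windows lie in the last exon, in the 3′ UTR.
Pou5f1, chr17:35510736-35510765, plus strand: attttgttcttaAATAAAgactgggacaca
Sox2, chr3:34652432-34652461, plus strand: aAATAAAtttttgaaatatggacactgaaa
Sall4, chr2:168748335-168748364, minus strand: tctgaaAATAAAgtgaatgttttccctcca
Utf1, chr7:139945083-139945112, plus strand: accaaAATAAAgattgtgttttctacttaa
Dnmt3b, chr2:153687701-153687730, plus strand: ctggttgATTAAAgttgtatttctctataa
Lin28a, chr4:134003342-134003371, minus strand: ctgggaaAATAAAgacttattggtactcca
L1td1, chr4:98738451-98738480, plus strand: catATTAAAgcttgaagtttgcatttgtca
Tdgf1, chr9:110939603-110939632, minus strand: gcacAGTAAAaatgggaactctgaacaaaa

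The canonical signal AATAAA stood in 5 of the 8 windows, those of Pou5f1, Sox2, Sall4, Utf1 and Lin28a. Dnmt3b and L1td1 held the common variant ATTAAA, and Tdgf1 held AGTAAA. The 3 hexamers were searched in this order on the transcribed strand only, and a window was assigned to the first one found. Among the windows of 5775 genes with at least 30 reads, 66.1% held AATAAA, 14.9% held ATTAAA, 2.84% held AGTAAA and 16.2% held none of the 3. The hexamer of Tdgf1 was thus an infrequent one, which is a description of its letters and not of its use.

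Reads of the members ended where the annotation places the end of the transcript. The share of reads that ended within 15 nt of the annotated end was 96.4% for Pou5f1, 96.4% for Sox2, 96.4% for Utf1, 97.2% for Dnmt3b, 97.7% for Sall4 and 89.1% for Tdgf1. It was 86.0% for L1td1 and 77.7% for Lin28a. Of the 206 Lin28a reads, 13 ended more than 500 nt upstream of the annotated end, and 8 of these, from 5 libraries, lay within 5 nt of a single site 1015 nt upstream. The 30 bases that end at this site, shown to compare them with those above, hold none of the 3 hexamers.
Lin28a, upstream end, chr4:134004345-134004374, minus strand: gttgtgtaaatataaatgtgttggtcttca
The 8 reads of this site had a median tail of 106 nt (65.8 to 154 nt), against 122 nt for the 160 reads at the annotated end. With so few reads the 2 ends were not compared further.

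Where reads began differed far more between the members. For Pou5f1 (ENSMUST00000025271, 5 exons, 1362 nt, at chr17:35506018-35510772) 75.4% of reads started within 100 nt of the annotated start, so that most were close to whole mRNAs. This share was 58.0% for Utf1 (1227 nt), 45.4% for Tdgf1 (1932 nt) and 16.2% for Sox2 (2057 nt). In the longer transcripts it was lower, at 6.31% for Lin28a (3505 nt), 11.1% for Dnmt3b (9 transcripts, the most-read of 4208 nt) and 0 of 44 reads for Sall4 (3 transcripts, the most-read of 5073 nt). For L1td1, whose transcript of 2942 nt is shorter than that of Lin28a, 2 of 278 reads started within 100 nt of the annotated start.

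L1td1 reads instead began in the middle of the transcript. The commonest start, in 70 of 278 reads, was position 1408 of the annotated transcript, which is the first base of exon 5, the last exon (chr4:98736946, in the coding sequence). Within 20 nt of this base, at positions 1388 to 1428, lay the starts of 117 reads (42.1%), while 23 reads started upstream of this window and 138 downstream. The part upstream of exon 5 was nearly absent from PASS reads but not from the table. Of all 360 L1td1 alignments, 45 (12.5%) had the tag NOREGION, which Nanopolish gives where it finds no tail segment, against 0.687% of all mRNA alignments. Only 18 of 3020 genes with at least 100 alignments, L1td1 included, had a NOREGION share as high. Of these 45 alignments, 20 started in the first 100 nt and 43 ended before position 1388, at a median of 1233, and every library held between 1 and 15 of them. Between the 2 sets of alignments lies the end of exon 4, and A or G made up 120 of its last 150 nt (positions 1258 to 1407) and 59.9% of the whole transcript. The most purine-rich 30 bases of the transcript (positions 1254 to 1283), shown because they lie in this gap, hold 27 A or G.
L1td1, exon 4, coding sequence, chr4:98736594-98736623, plus strand: tcaagaagcaggagggggaagaagaagaaa
Whether the reads that start at exon 5 come from another isoform was not tested, and L1td1 read counts below are counts of molecules with this 3′ end.

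**Figure D1:**
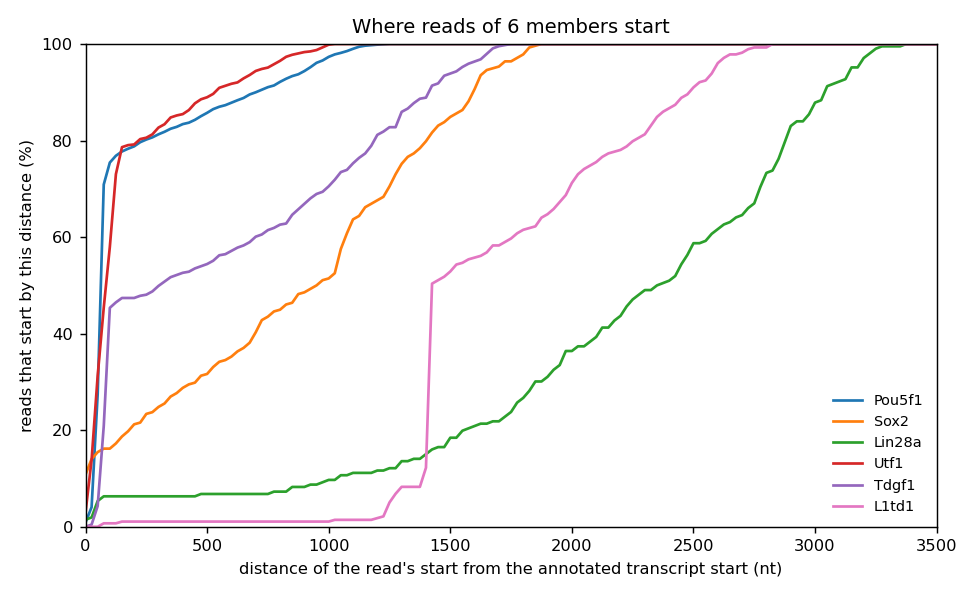
Cumulative share of reads (%) that start by a given distance (nt) from the annotated transcript start, for 6 members with all 8 libraries together. Pou5f1 and Utf1 rise at the left edge, with 75.4% and 58.0% of reads within 100 nt, Sox2 and Lin28a rise gradually, and L1td1 stays near 0 up to a step that holds 42.1% of its reads between positions 1388 and 1428.

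In level the members spanned a wide range. Pou5f1 held 68.4% of the members' reads (5098 of 7449), and between 64.9% and 71.2% in each library. Normalised read counts (reads divided by the median-of-ratios size factor of the library) of Pou5f1 were between 513 and 704, far above every other member in all 8 libraries. Utf1 followed with 71.3 to 102, then Tdgf1 with 31.9 to 80.5 and Dnmt3b with 30.7 to 63.5. The range of Tdgf1 overlapped those of Utf1 and Dnmt3b, which did not overlap each other. Sox2 and L1td1 had 278 reads each in all, with 21.8 to 42.0 for Sox2 and 21.8 to 41.2 for L1td1, and Lin28a had 19.8 to 34.6. Sall4 had 44 reads in all and 1 to 9 per library, too few for the count and tail fits, so 7 of 8 members were tested. Mapping quality was at least 10 for 97.8% to 100% of the reads of the 6 members with 1 transcript, but for 9.02% of Dnmt3b and 2.27% of Sall4 reads, whose transcripts share sequence. Counts by gene do not depend on which of these transcripts a read was given to.

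The first question was whether mTOR activation changed the amount of these mRNAs in undifferentiated cells. At 24 h of MHY none of the 7 tested members was called by limma (Benjamini-Hochberg adjusted p under 0.05 over all genes tested), and 0 of 7 had an unadjusted p under 0.05. The background for this comparison was 0.0486% of 4116 genes called (2 genes, with 184 genes at an unadjusted p under 0.05). At 48 h 1 of 7 members, Tdgf1, was called, and it was lower in MHY. The background at 48 h was 1.72% (71 genes, 17 higher and 54 lower).

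Tdgf1, which encodes the membrane-anchored co-receptor Cripto, had normalised read counts of 67.3 and 80.5 in the 2 DMSO libraries at 48 h and of 31.9 and 46.0 in the 2 MHY libraries (raw reads 61 and 105 against 46 and 43). Both MHY libraries thus lay below both DMSO libraries, as they did for 21.3% of all 4116 genes. The fitted log2 change was -0.997 ± 0.213 (SE, n = 2 per group, limma adjusted p = 0.000679), about 0.501 of the DMSO level. By size it ranked 19 among the 54 genes called lower. At 24 h the values were 48.7 and 51.8 in DMSO and 55.2 and 49.0 in MHY, which overlapped, with a log2 change of 0.05 ± 0.23 (limma adjusted p = 1.00).

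The 2 sequencing runs of 48 h read the same 4 libraries and so do not repeat the treatment. The lower Tdgf1 level at 48 h was present within both, with log2 ratios, not tested, of -1.26 and -0.67 from 110 and 145 reads. It kept its direction without any 1 library, but it was no longer called without DMSO library 25 (-0.85, limma adjusted p = 0.153) or without MHY library 24 (-0.69, limma adjusted p = 0.559). The effect at 48 h minus that at 24 h was -1.05 ± 0.32 and missed the threshold (limma adjusted p = 0.154), so Tdgf1 was not shown to respond differently at the 2 times. No other member was called for this difference either, against a background of 0.34% (14 genes). In DMSO alone Tdgf1 stood at 50.3 ± 2.1 (SD, n = 2) at 24 h and 73.9 ± 9.3 (SD, n = 2) at 48 h, a log2 change of 0.56 ± 0.21 (unadjusted p = 0.00831, limma adjusted p = 0.956). The MHY groups stood at 52.1 ± 4.4 (SD, n = 2) at 24 h and 38.9 ± 9.9 (SD, n = 2) at 48 h.

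Of the core factors, Pou5f1 had the smallest error. Its normalised read counts were 639 and 704 in DMSO against 581 and 635 in MHY at 24 h, where the groups did not overlap, as was so in this direction for 18.9% of all 4116 genes. Scaled to total reads instead, the groups of Pou5f1 overlapped at 24 h too. At 48 h they were 585 and 695 in DMSO against 513 and 638 in MHY, where they did. The log2 changes were -0.15 ± 0.12 at 24 h and -0.19 ± 0.11 at 48 h (limma adjusted p = 0.982 and 0.521). Sox2, its partner on DNA, gave 21.8 and 30.7 in DMSO against 30.2 and 39.4 in MHY at 24 h, and 42.0 and 31.4 against 36.1 and 39.5 at 48 h. Both pairs of groups overlapped, although scaled to total reads both MHY values lay above both DMSO values at 24 h. The log2 changes were 0.35 ± 0.29 and 0.07 ± 0.24. For Sall4, a zinc finger factor that works with Oct4, the raw reads were 2 and 6 in DMSO and 9 and 1 in MHY at 24 h, and 2 and 9 against 7 and 8 at 48 h. A difference in Sall4 was not detectable at this depth.

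**Figure D2:**
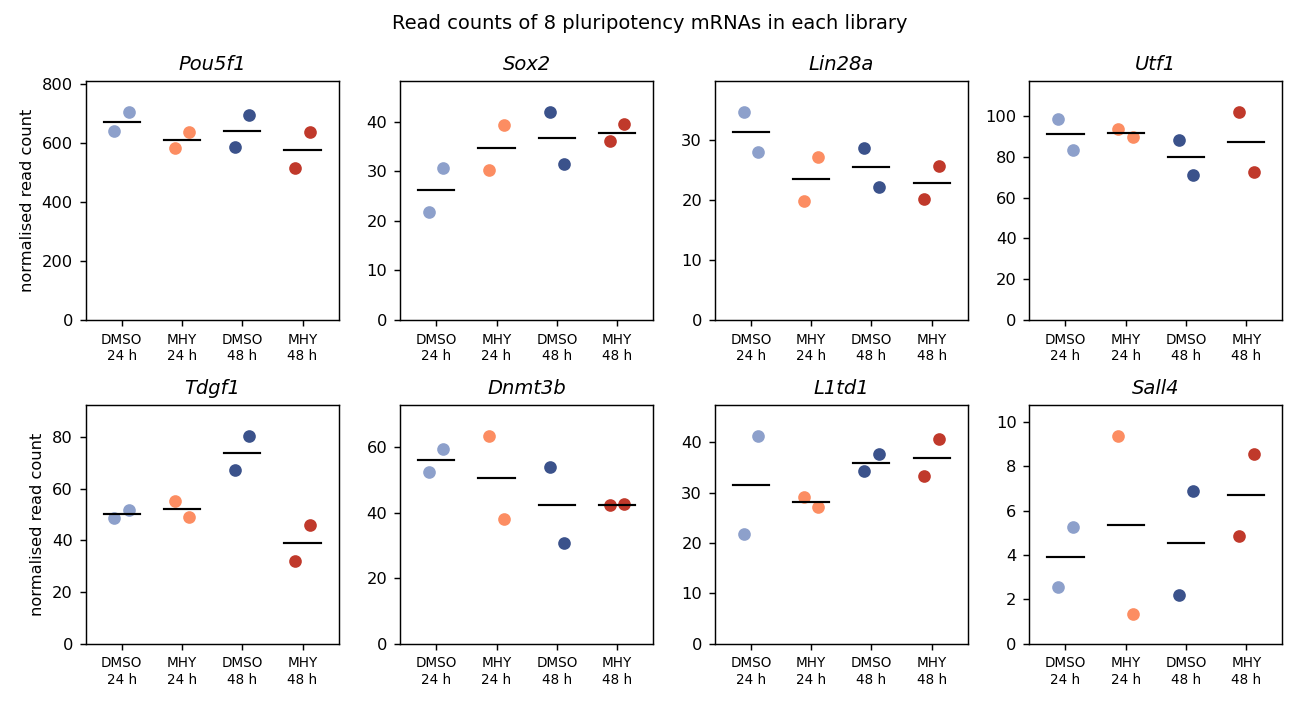
Normalised read count (y, from 0, a different range in each panel) of the 8 members in the 4 groups (x). Points are the 2 libraries of a group and black lines their means. Tdgf1 at 48 h shows both MHY points (31.9 and 46.0) below both DMSO points (67.3 and 80.5).

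The chromatin regulators did not pass the test at either time. Utf1, which binds chromatin in undifferentiated cells, had 98.8 and 83.3 in DMSO and 93.7 and 89.8 in MHY at 24 h, with the MHY values inside the DMSO range, and 88.3 and 71.3 against 102 and 72.7 at 48 h. Its log2 changes were 0.03 ± 0.19 and 0.16 ± 0.18. Dnmt3b had 52.6 and 59.7 against 63.5 and 38.1 at 24 h, and 54.1 and 30.7 against 42.3 and 42.7 at 48 h, with log2 changes of -0.16 ± 0.23 and 0.12 ± 0.23. Between the DMSO groups Dnmt3b was at 56.1 ± 5.0 (SD, n = 2) at 24 h and 42.4 ± 16.6 (SD, n = 2) at 48 h, a log2 change of -0.53 ± 0.23 (limma, unadjusted p = 0.0204, adjusted p = 0.999). Dnmt3b and Tdgf1 were the 2 members with an unadjusted p under 0.05 between the DMSO groups, in opposite directions, and limma called 0% of the 4116 genes in that comparison (175 at an unadjusted p under 0.05).

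The RNA-binding proteins were measured with few reads. Lin28a, which blocks the maturation of let-7 microRNAs, had normalised read counts of 34.6 and 28.1 in DMSO and 19.8 and 27.2 in MHY at 24 h. The groups did not overlap (18.9% of all genes in this direction), and the log2 change of -0.42 ± 0.31 did not pass the test (limma adjusted p = 0.959), and at 48 h the counts were 28.7 and 22.2 against 20.1 and 25.6 (-0.16 ± 0.29). L1td1, an RNA-binding protein derived from a LINE-1 element, had 21.8 and 41.2 in DMSO against 29.2 and 27.2 in MHY at 24 h, and 34.2 and 37.6 against 33.3 and 40.6 at 48 h. At both times the groups overlapped, and the log2 changes were -0.15 ± 0.29 and 0.00 ± 0.24. Over the 7 members the median log2 change was -0.15 at 24 h and 0.00 at 48 h, against -0.02 and -0.02 over all genes tested.

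**Figure D3:**
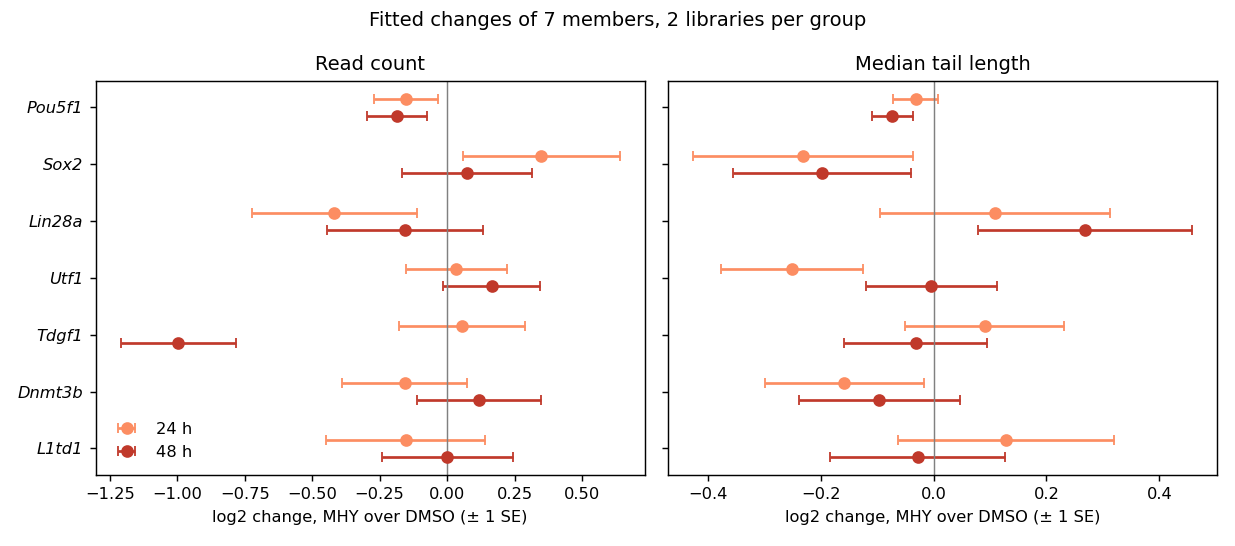
Fitted log2 change, MHY over DMSO, of the read count (left) and of the median tail length (right) for 7 members at 24 h and 48 h, with bars of 1 SE. Tdgf1 at 48 h (-0.997) stands apart on the left; on the right the changes lie between -0.25 and 0.27 with bars that are narrow for Pou5f1 only.

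Tails of the members were compared next, first among themselves. Over all their reads the median tails were 122 nt for Lin28a, 116 nt for Sox2, 114 nt for Pou5f1, 110 nt for Dnmt3b, 108 nt for Tdgf1 and 97.3 nt for both Utf1 and L1td1. Sall4 could not be placed in this order, because its 44 reads had a median of 118 nt but library medians from 51.8 to 154 nt (111 ± 35.7 nt, SD, n = 8). The median of all kept reads was 98.7 nt. When the median of each library was averaged, 5 of the 7 members with enough reads lay above the median gene (100 nt, over 1949 genes with at least 10 reads in each library). Lin28a lay above 94.6% of these genes, Pou5f1 above 87.8%, Sox2 above 87.5%, Tdgf1 above 80.8% and Dnmt3b above 80.5%, whereas L1td1 and Utf1 lay above 45.3% and 37.4%.

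The order of tails was tested against Pou5f1 within each library, a comparison chosen after the values were seen. The median tail of Utf1 was shorter than that of Pou5f1 in 8 of 8 libraries, by 17.9 ± 10.4 nt (SD, n = 8). That of L1td1 was shorter in 8 of 8 libraries, by 15.8 ± 8.2 nt (SD, n = 8). Both gave a two-sided exact permutation p of 0.0078, the smallest that 8 libraries can give, and 0.0234 after Benjamini-Hochberg adjustment over the 6 pairs. Tdgf1 (shorter in 7 of 8) and Dnmt3b (shorter in 6 of 8) had mean differences from Pou5f1 of -4.29 ± 7.28 and -4.36 ± 6.24 nt (SD, n = 8), and the exact permutation test did not separate them (adjusted p = 0.199 and 0.172). Neither Lin28a, longer by 7.05 ± 17.0 nt (SD, n = 8), nor Sox2, with a mean difference of -0.15 ± 11.7 nt (SD, n = 8), was separated from Pou5f1 by this exact test (adjusted p = 0.384 and 0.961).

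The shapes of the distributions differed as well as their middles. Pou5f1 had few short tails, with 84 of 5098 reads (1.65%, Wilson 95% interval 1.33 to 2.04%) under 30 nt and 28.5% (27.2 to 29.7%) between 30 and 90 nt. All reads together had 2.92% under 30 nt and 40.6% between 30 and 90 nt. Utf1 had 44 of 716 reads under 30 nt (6.15%, 4.61 to 8.15%) and 39.4% between 30 and 90 nt. Lin28a had 0 of 206 reads under 30 nt, with a Wilson interval up to 1.83%, and Tdgf1 had 4 of 441 (0.907%, 0.353 to 2.31%). At the long end, tails over 200 nt made up 11.2% of Sox2, 11.3% of Dnmt3b, 5.75% of Pou5f1 and 2.52% of L1td1 reads. The interquartile range of the Sox2 tails was 88.7 nt, from 70.1 to 159 nt, against 64.4 nt for Pou5f1 (82.7 to 147 nt). Intervals cover counting error only. Pou5f1 reads that reached the first 100 nt of the transcript had a median tail of 115 nt and the remaining ones 111 nt, a difference of 3.0 ± 8.6 nt within libraries (SD, n = 8) that was positive in 5 of 8. For Sox2 this difference was -24.1 ± 32.8 nt (SD, n = 7), with 45 such reads, and positive in 2 of 7. For Utf1, Tdgf1 and Dnmt3b the means were 3.16, 3.46 and 8.17 nt, and each was positive in 3 of 8.

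**Figure D4:**
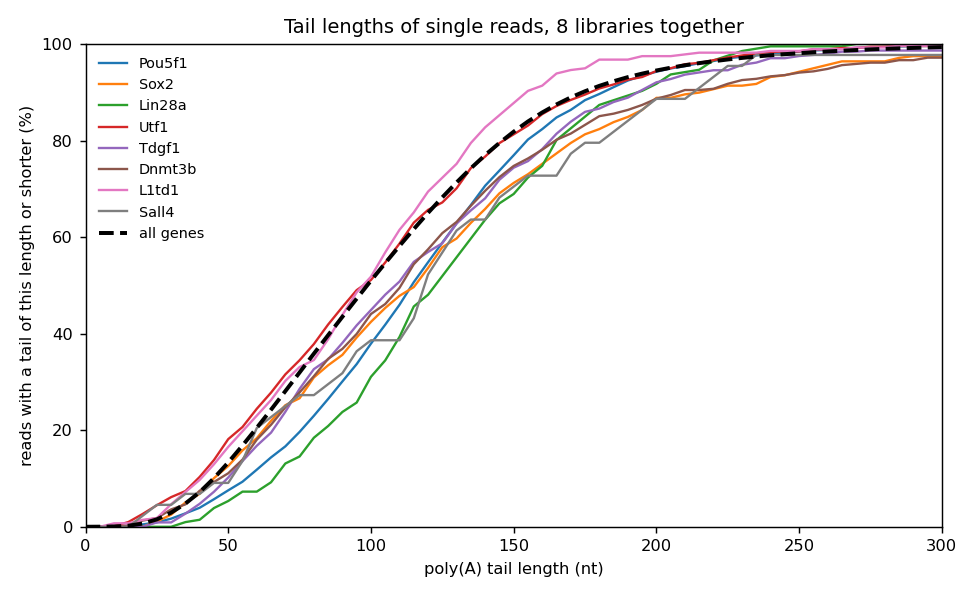
Cumulative share of reads (%) with a tail of a given length (nt) or shorter, for the 8 members and for all genes (dashed), 8 libraries together. Utf1 and L1td1 run close to all genes (medians 97.3 nt against 98.7 nt), and Pou5f1 and Lin28a run to the right of them (114 and 122 nt).

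The study used MHY to ask whether mTOR controls the tails of mRNAs with a terminal oligopyrimidine motif (TOP mRNAs), and its tail classes were applied here to the members. For the median tail limma called none of the 7 members at 24 h (0 with an unadjusted p under 0.05) and none at 48 h (again 0). The backgrounds were 0% of 1949 genes at 24 h (69 at an unadjusted p under 0.05) and 0.564% at 48 h (11 genes, all shorter in MHY). The difference of the effects between times called 0% of genes (85 unadjusted) and the DMSO groups at 48 h against 24 h also 0% (116 unadjusted), with no member called in either.

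Pou5f1 gave the most precise tails. Its library medians were 120.4 and 119.6 nt in DMSO and 116.9 and 117.8 nt in MHY at 24 h, and 112.5 and 114.3 nt in DMSO and 106.5 and 109.9 nt in MHY at 48 h. The MHY libraries were below the DMSO libraries at both times, by 2.65 nt and 5.15 nt on average. The log2 changes were -0.03 ± 0.04 at 24 h and -0.07 ± 0.04 at 48 h (limma, unadjusted p = 0.442 and 0.0590, adjusted p = 0.999 and 0.584). At 48 h the shorter values appeared in both runs of the same libraries, by 2.62 and 6.18 nt, whereas at 24 h the 3 runs gave -5.96, -1.51 and 5.11 nt. The median over all 1949 genes moved the same way at 48 h, with a log2 change of -0.04. Within DMSO, Pou5f1 tails were at 120 ± 0.59 nt (SD, n = 2) at 24 h and 113 ± 1.3 nt (SD, n = 2) at 48 h, with a log2 change of -0.08 ± 0.04 (limma, unadjusted p = 0.0461, adjusted p = 0.835), and the 2 times were sequenced in different runs.

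Medians of the other members varied more between libraries. Sox2 medians were 120.5 and 129.1 nt in DMSO against 110.2 and 105.0 nt in MHY at 24 h, and 119.9 and 123.1 nt against 118.5 and 90.5 nt at 48 h. These groups did not overlap at either time, but each value rests on 17 to 52 reads, and the log2 changes of -0.23 ± 0.19 and -0.20 ± 0.16 did not pass the test. Lin28a went the other way at 48 h, with 109.3 and 116.4 nt in DMSO against 124.5 and 151.7 nt in MHY, a log2 change of 0.27 ± 0.19 (limma adjusted p = 0.761) from 24 to 29 reads per library. Groups did not overlap for 2 of 7 members at 24 h and 3 of 7 at 48 h. Over all 1949 genes MHY lay wholly below DMSO for 17.9% at 24 h and 21.8% at 48 h, and wholly above for 279 and 233 genes.

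Utf1 had the largest fitted tail change at 24 h. Its medians were 99.7 and 105.3 nt in DMSO and 76.9 and 101.1 nt in MHY, which overlapped, with a log2 change of -0.25 ± 0.13 (limma, unadjusted p = 0.0573, adjusted p = 0.999). At 48 h they were 90.9 and 102.6 nt against 93.0 and 105.5 nt, a log2 change of 0.00 ± 0.12. Tdgf1, the member whose reads fell at 48 h, had library medians of 100.2 and 104.7 nt in DMSO and 96.6 and 105.4 nt in MHY at that time. The MHY medians enclosed the DMSO medians, and the log2 change was -0.03 ± 0.13 (limma adjusted p = 0.982). Dnmt3b and L1td1 had log2 changes of -0.10 ± 0.14 and -0.03 ± 0.16 at 48 h and were not called. Their groups overlapped, with medians of 110.6 and 105.2 nt in DMSO against 98.4 and 105.6 nt in MHY for Dnmt3b, and of 108.9 and 86.3 nt against 91.8 and 93.6 nt for L1td1.

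**Figure D5:**
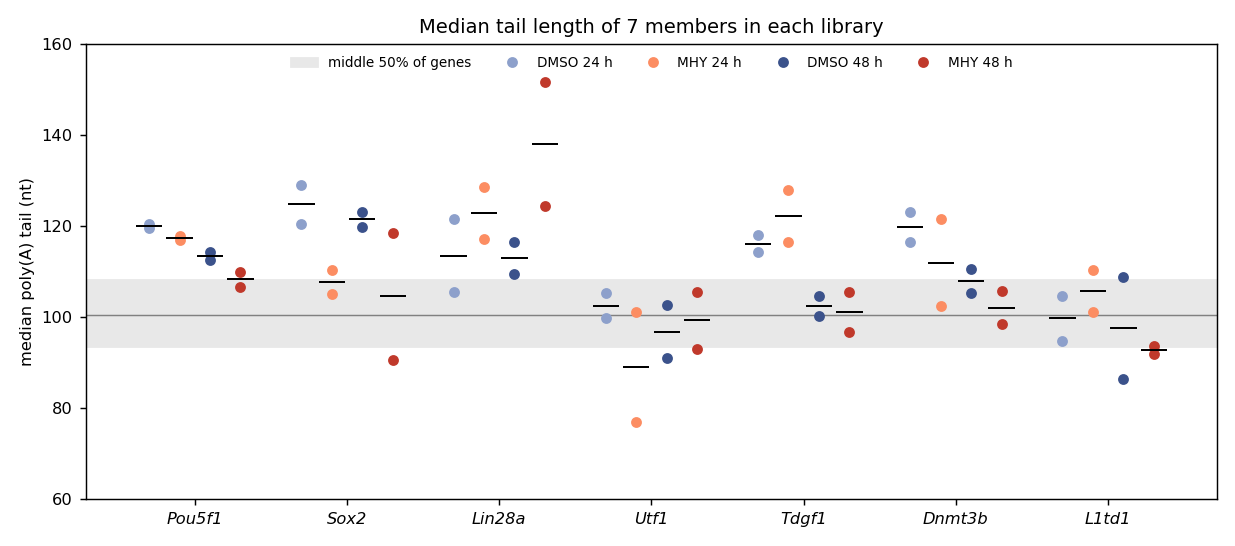
Median poly(A) tail length (nt) of 7 members in each library, colored by group, with black lines for the mean of the 2 libraries; the grey band holds the middle 50% of 1949 genes (93.4 to 108 nt) and the grey line their median. Pou5f1 points of a group lie close together and step down from 120 nt in DMSO at 24 h to 108 nt in MHY at 48 h, and Sox2 and Lin28a points of MHY at 48 h lie far apart.

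For tails under 30 nt, limma called no member at 24 h (background 0%, 110 of 1949 genes at an unadjusted p under 0.05) and none at 48 h (background 0.359%, 7 genes, all with a larger share in MHY). Utf1 was the 1 member of 7 with an unadjusted p under 0.05 at 48 h, against 207 of all 1949 genes (10.6%). Its shares were 2.50% and 4.30% in DMSO (2 of 80 and 4 of 93 reads) and 8.16% and 5.88% in MHY (12 of 147 and 4 of 68 reads), so that the groups did not overlap. Of all 1949 genes, 26.1% had both MHY shares above both DMSO shares at 48 h, among them L1td1 with 3.23% and 2.04% in DMSO (1 read each) against 6.25% and 10.5% in MHY (3 and 4 reads). On the log2 odds scale the Utf1 change was 1.05 ± 0.45 (unadjusted p = 0.0450, limma adjusted p = 0.455), against a median of 0.41 over all genes tested. For Pou5f1 the shares at 48 h were 1.89% and 2.10% in DMSO and 2.70% and 1.68% in MHY, which overlapped.

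For tails of 30 to 90 nt no member was called at 24 h (background 0%, 95 genes at an unadjusted p under 0.05) or at 48 h (background 0.257%, 5 genes). Pou5f1 had 28.1% and 23.9% of its reads in this class in DMSO and 26.2% and 26.3% in MHY at 24 h. At 48 h it had 28.9% and 29.7% in DMSO and 32.4% and 31.5% in MHY, and both MHY values were above both DMSO values (limma adjusted p = 0.925). L1td1 lay the other way, with 41.9% and 53.1% in DMSO and 37.5% and 34.2% in MHY (limma adjusted p = 0.925), and 4 of the 7 members had a fitted change below 0. Over all genes 17.6% lay wholly above and 15.2% wholly below DMSO at 48 h.

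The other genes of the pluripotency network were read from a list of 49 genes. Of these, 46 had reads, 29 had at least 30, and 21 had enough for the count test. None was called at 24 h and 1 of 21 at 48 h, with a median log2 change of 0.05 and -0.13. That gene was Lefty1, a secreted inhibitor of Nodal. Its normalised read counts at 48 h were 19.9 and 20.7 in DMSO and 6.93 and 7.48 in MHY, which did not overlap (as for 21.3% of all genes in this direction), from 18, 27, 10 and 7 reads. The log2 change was -1.46 ± 0.42 (limma adjusted p = 0.0356), and at 24 h it was -0.55 ± 0.32 (limma adjusted p = 0.958). The call was lost without any 1 of the 4 libraries of 48 h (limma adjusted p up to 0.661, for MHY library 24) and under 5 of 8 other settings, where the log2 change stayed between -1.52 and -1.34. Gdf3, a ligand related to Nodal and also on the list, was not called, with 48.6 and 28.4 in DMSO and 40.2 and 33.1 in MHY at 48 h. Among the tails of 10 testable genes of the list, limma called none at either time.

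The most-read genes of that list were Trim28 (971 reads), Mkrn1 (513), Gdf3 (284), Otx2 (276) and Epcam (269). Trim28, a corepressor used by KRAB zinc finger proteins, was thus better covered than any member but Pou5f1. The 3 genes without a read were Zfp42, Nr5a2 and Tcl1, of which Zfp42 (Rex1) is a known marker of naive pluripotency. A count of 0 among all reads allows a share of up to 0.000156% of reads (3 reads). For the label of undifferentiated embryonal carcinoma cells 10 marker genes were read, of which 9 had reads and Zfp42 was at 0. This list includes the 8 members, whose presence was fixed by the minimum of 30 reads, so they do not test the label. Besides them it held only Zfp42 and another gene, which had reads.

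Markers of differentiated cells were present at unequal levels, and few were well covered. Of 15 neural genes 12 had reads, 739 in all, of which 455 came from Stmn2, a neuronal microtubule regulator, and 94 from the neuronal tubulin Tubb3, and Neurog1 and Dcx were at 0. Their summed normalised count was 87.2 to 104 in DMSO and 81.2 to 118 in MHY at 24 h, and 92.7 to 98.9 in DMSO and 69.5 to 75.6 in MHY at 48 h. The sums of the 2 groups did not overlap at 48 h. Of single genes 21.3% had both MHY counts below both DMSO counts, a share that is no reference for the sum over a list. Stmn2 itself had a log2 change of -0.67 ± 0.22 at 48 h and was not called (limma adjusted p = 0.0851). Tubb3, the other neural gene with enough reads for the test, lay the other way at 48 h, with 7.73 and 8.43 in DMSO against 13.9 and 9.62 in MHY, and was not called either (limma adjusted p = 0.670). Of 10 mesoderm and endoderm genes 7 had reads, 304 in all, and Sox17, Afp and Hnf4a were at 0. Trophectoderm (2 genes) and retinoid response (4 genes) gave 5 and 12 reads in all.

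The mesoderm gene T (Brachyury), a target of Nodal and Wnt signals, was the 1 differentiation marker called, at 48 h. Its normalised read counts were 16.6 and 56.0 in DMSO (libraries 24 and 25) and 6.93 and 42.7 in MHY (libraries 24 and 25). The 2 groups overlapped, and library 25 was the higher one under both treatments. The log2 change was -1.19 ± 0.30 (limma adjusted p = 0.00890). It was -0.57 and not called with the library number as a block (limma adjusted p = 0.350), -0.21 without DMSO library 25 (limma adjusted p = 0.952) and 0.34 without MHY library 24. Mesoderm and endoderm genes summed to 35.3 and 80.5 in DMSO and 18.7 and 66.3 in MHY at 48 h, and were higher in library 25 than in library 24 of each treatment, as Tdgf1 was. The part of these cells in the Tdgf1 result was not tested, and in these libraries fewer cells of a type and less RNA per cell cannot be told apart.

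Among 230 genes outside the members with at least 100 reads in every library, those whose level over the 8 libraries was most like the mean of the 7 members were Nap1l1 (Pearson r = 0.81), Ndufa4 (0.78) and Slc25a3 (0.75). These are descriptions over 8 libraries that share runs and size factors.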

How the data were processed

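Direct RNA libraries of P19 cells (8 libraries, 2 per group) were analysed from 1 deposited table of alignments. Base calling by the authors used Guppy, and reads were mapped to the GENCODE vM17 mouse transcripts (mm10) with minimap2, given as version 2.20 in the submitters' processing notes. Tail lengths came from Nanopolish and barcodes from Deeplexicon. Tail lengths are deposited in nucleotides and without normalisation. The barcode confidence deposited by the authors is a fraction, and the deposited mapping quality is a score. The table holds no counts, so reads were counted from its lines: 2005246 PASS alignments of class mRNA, less 66955 mitochondrial and 12169 pseudogene lines and 4 repeats, left 1926118 reads, 178369 to 316546 per library. That number limits precision, and Wilson intervals cover counting error only.

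Read counts of the 4116 genes that reached 10 reads in 2 or more libraries were fitted with limma 3.58.1 (voom, median-of-ratios size factors). Log2 median tails and log2 odds of tail classes (0.5 read added) of the 1949 genes that reached 10 reads in every library were fitted with limma weighted by read number. All 8 libraries entered 1 fit per measure, and p-values were adjusted by Benjamini-Hochberg over all genes of a contrast. An exact permutation test over 2 against 2 libraries cannot reach the threshold and was not used. Scripts were tested on simulated data. Alternatives were other read filters, scalings, weights and tail summaries, a replicate block, the libraries of 1 time point alone and leaving out each library. Replicates of a group differed by more than sampling noise (chi-square over genes).

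Members and gene lists were chosen with earlier results of these data known. All members are named, and of the other pluripotency genes the 5 with most reads and those called. Of the differentiation markers, the 3 with most reads and those called are named, and so are genes at 0, of which 1 is not reported here. The list of other pluripotency genes named 1 gene under 2 symbols (Dppa5 and Dppa5a), which was counted once. Coordinates are from GENCODE vM21, the same assembly. Time and sequencing run cannot be told apart.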

Additional observations from a re-analysis of the deposited data

How the results depend on the processing

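Tdgf1 at 48 h, the 1 member called, stayed called under the 8 alternatives other than omitting a library (log2 change -1.07 to -0.88, limma adjusted p 0.00038 to 0.00626). Without 1 library each, the number of members called was between 0 and 1, and the Tdgf1 change between -1.22 and -0.69. The difference of the Tdgf1 effects was called without MHY library 25 of 48 h (-1.27, limma adjusted p = 0.0362), so that 0 to 1 members were called there. In the other 10 comparisons the count of members called was 0 under every alternative run. The cause of these changes was not tested.

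The library number as a replicate block changed no call of a member (Tdgf1 at 48 h stayed called, 1 member), and ended that of T (-0.57). Labels do not say that numbers pair libraries, and same-numbered libraries deviated together with r = 0.16 at 24 h and 0.21 at 48 h over 231 genes, as a hint from the data. No block could be fitted for the DMSO groups at 48 h against 24 h, which share no number.

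Uncalled changes close to 0 changed sign without 1 library. At 24 h the ranges over the 8 omissions were -0.10 to 0.14 for Utf1, -0.04 (-0.0381) to 0.13 for Tdgf1, -0.56 to 0.17 for Dnmt3b and -0.53 to 0.36 for L1td1. At 48 h they were -0.17 to 0.25 for Sox2, -0.37 to 0.05 (0.0549) for Lin28a, -0.11 to 0.38 for Utf1, -0.35 to 0.47 for Dnmt3b and -0.12 to 0.17 for L1td1. T, a called gene, ranged from -2.23 to 0.34. With no filter on low counts L1td1 at 48 h was 0.00 (-0.0025). All genes called at 48 h numbered 71 for counts (37 with upper quartile scaling, 147 with no filter, 10 to 145 without 1 library), 11 for median tails (0 with no weights, 28 with the block, 0 to 44 without 1 library), 7 for tails under 30 nt (0 and 17, 0 to 10) and 5 for 30 to 90 nt (0 with no weights, 11 with 1 time point alone, 0 to 35). For the difference of effects, 14 genes became 6 to 29 (0 to 30 without 1 library). Counts called 2 genes at 24 h (1 to 3, or 0 to 3 without 1 library) and 0 between the DMSO groups (8 with no filter, up to 2 without 1 library). The 30 to 90 nt share at 24 h went from 0 to 4 genes with 1 time point alone. Tails of the 6 tested members other than Pou5f1 are limited by 17 to 147 reads per library.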
